A study of Brachypodium distachyon with 6 samples.

Results

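The genes described here are the strongest mesophyll markers, by difference in detection, of a single-cell atlas of the *Brachypodium distachyon* leaf. Their levels were compared in bulk RNA of separate samples of leaf developmental zones, either released as protoplasts or left undigested. The genes were chosen from the marker table that accompanies the study. Among its mesophyll rows, genes were ordered by how much more often they were detected in cells of the mesophyll cluster than in all other cells, and the first 200 were kept after genes of the named marker list, the transcription factor list, the target gene list and the mitotic sheet had been left out. Of the 1999 mesophyll rows at hand, 63 were left out in this way, so that the 200 were taken from 1936 genes. The text of that table was cut, and mesophyll rows beyond those at hand were not considered. In the deposited count table, which holds 36647 genes, 199 of the 200 were found, and all 199 had enough counts to be tested. The detection shares that chose the genes come from single cells that were themselves protoplasts, and they are a description, not a result. The difference in detection was 0.72 for the first gene and 0.303 for the last. Over the 200 genes, the median share of cells was 0.816 in the cluster and 0.417 among other cells. A gene just inside the limit was detected in a share of 0.602 of the cluster and 0.299 of other cells, and the first gene outside it stood at 0.86 and 0.558, a difference of 0.302. The limit therefore cut through genes of nearly the same contrast. The bulk counts were not used in this choice.

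Mesophyll is the photosynthetic ground tissue of the leaf blade. Its cells are rich in chloroplasts and lie between the epidermal layers and around the veins. At the base of a growing grass leaf, mesophyll cells are young and still differentiating, and the nuclear genes for light harvesting and carbon fixation rise as the plastids mature. Of the 200 genes, 15 were paired with a Bradi identifier of the reference accession in the study's gene table, whose text was at hand only in part. The rows at hand are the first of a table ordered by the authors' own fold change between the same groups, so that whether a marker is paired is not independent of the bulk contrast. Yet some genes of these rows changed little in the deposited counts, such as BdiBd21-3.3G0687700 at a log2 fold change of 0.12. This mismatch with the authors' order was not resolved, and only the pairing was taken from that table. Genes are given by their identifiers, without a role, because descriptions of function were not used here.

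RNA came from leaf developmental zones of soil-grown wild type plants, the accession Bd21-3, 3 wk old. The protoplasted group was made from 10 zones per sample, whose cell walls were digested with Cellulase Onozuka RS and Macerozyme R10. The non-protoplasted group was made from 5 undigested zones per sample. Each group had 3 replicates, which the study calls biological, and the same wild type served for both. The title and the library name of each sample gave its group. The treatment field of GEO's labels contradicts this in each of the 6 samples, and by that field every direction below would turn. The libraries are therefore called labelled protoplasted and labelled non-protoplasted, and a positive log2 fold change means a higher level in the libraries labelled protoplasted by title.

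The 6 libraries held between 17482438 and 24621927 counts on genes. Levels are given as CPM, counts relative to the library size after TMM scaling, and 3 counts stood at 0.106 to 0.205 CPM. Differences were tested over 23677 genes with the quasi-likelihood test of edgeR and Benjamini-Hochberg adjustment, and a gene passed at an adjusted p under 0.05. This comparison moved much of the transcriptome, since 38.7% of all genes tested rose and 38.3% fell in the libraries labelled protoplasted, 77.0% in all. The mesophyll markers that the study names, *BdLHCA6* and *BdSTOMAGEN-1*, are no members of the set, and their levels cannot check its label. Both were detected in all 6 libraries, and their summed level was 69.4 to 81.7 CPM in the libraries labelled protoplasted and 34.4 to 36.6 CPM in the others. Markers of other cell types moved as well. The 3 epidermal markers summed to 231 to 327 CPM against 52.4 to 66.8 CPM, with 2 of 3 higher. *BdPDF1* alone was at 157 to 228 CPM against 15.1 to 19.8 CPM. The 9 markers taken as vascular summed to 239 to 252 CPM against 86.5 to 92.1 CPM, with 6 higher and 1 lower of 8 tested. Among the 6 were *BdWOX4* and *BdPIN1a*, which the study places in a dividing domain of both shoot apex and vasculature. *BdXCP1-like* alone was at 195 to 208 CPM against 66.6 to 69.4 CPM. The 5 markers taken for the shoot apex summed to 0.889 to 1.53 CPM against 1.90 to 2.73 CPM, with *BdKN1* and *BdKNAT1-like* at 0 counts in every library. Of the 5, 2 could be tested, and 1 of these was lower. The vascular and shoot apex lists were a choice among the genes that the study names for these tissues. The part of these cell types in the results below was not tested. In bulk RNA, more cells of a type and more RNA per cell cannot be told apart.

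The mesophyll markers were abundant genes. Their mean level over the 6 libraries ran from 5.90 to 2391 CPM with a median of 186 CPM, whereas the median of all genes tested was 12.6 CPM. Per length, the median was 246 TPM for the markers and 10.4 TPM for all genes tested. The lowest count of any marker in any library was 23, so that no value rested on a handful of reads. Together the 199 genes took 7.63%, 8.49% and 8.63% of the counts in replicates 1, 2 and 3 labelled protoplasted, and 2.88%, 3.30% and 2.99% in those labelled non-protoplasted. The groups did not overlap, and the lowest library of one lay at more than 2 times the highest of the other. The means were 8.25% ± 0.542 (SD, n = 3) and 3.06% ± 0.219 (SD, n = 3), a difference of 5.19 percentage points and a ratio of 2.70. The two-sided exact permutation test gave p = 0.1, the smallest value that 3 against 3 libraries allow. After TMM scaling the summed level was 72290 ± 4606 CPM (SD, n = 3) against 34940 ± 1617 CPM (SD, n = 3), a smaller ratio of 2.07. In TPM the markers made up 12.5% against 4.80% of a library. The 5 most abundant markers held 16.0% of all counts on the set. In the single-cell table all 5 had a lower average level in the mesophyll cluster than in other cells. Without them the share was still 6.77% against 2.75%.

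**Figure D1:**
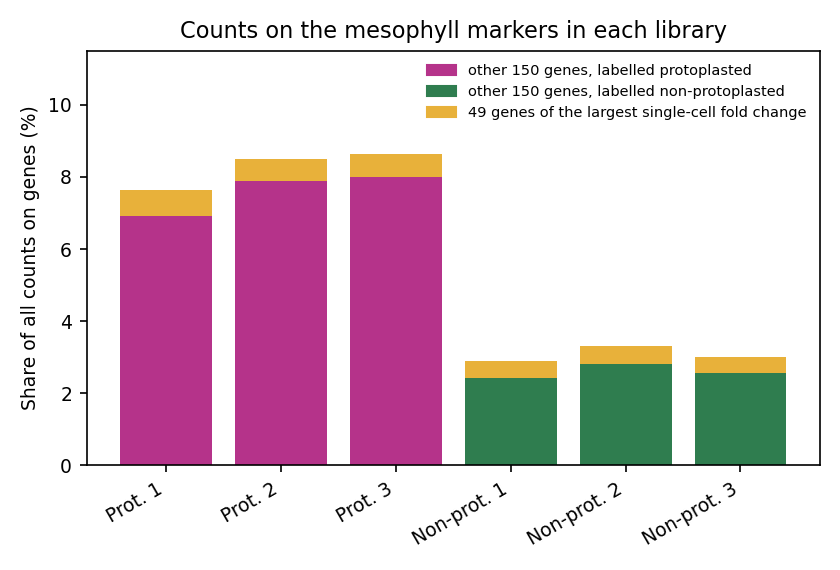
Share of all counts on genes (y axis, percent) that fell on the 199 mesophyll markers in each of the 6 libraries (x axis). Each bar is 1 library, and the yellow part holds the 49 markers of the largest single-cell fold change. The full bars stand at 7.63 to 8.63% in the libraries labelled protoplasted and at 2.88 to 3.30% in those labelled non-protoplasted, while the yellow parts stay between 0.429 and 0.700%.

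Most of the mesophyll markers rose in the libraries labelled protoplasted. In the test, 148 of 199 were higher (74.4%, beside 38.7% of all genes tested), 14 were lower (7.04%, beside 38.3%) and 37 did not pass. Either direction passed in 162 of them (81.4%, beside 77.0%). The median log2 fold change of the 199 genes was 0.90, with the middle 50% of genes between 0.38 and 1.34, and the median of all genes tested was 0.04. The size of the change was moderate. A log2 fold change above 1 was reached by 87 markers (43.7%, beside 25.5% of all genes), and one below -1 by 7 (3.52%, beside 28.7%). Beyond 3 on the log2 scale, the limit the study uses for genes affected by protoplasting, stood 2 markers above (beside 5.09% of all genes) and 2 below (beside 12.6%). Of the 2 above, BdiBd21-3.3G0174200 stayed above 3 whichever library was left out, the lowest value being 3.00. BdiBd21-3.3G0624200 fell to 2.83 without replicate 1 labelled non-protoplasted and to 2.85 and 2.98 without replicates 2 and 3 labelled protoplasted, which left 1 marker above 3. Without replicate 2 labelled non-protoplasted there were 5. The range of the whole set was -4.39 to 3.13.

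**Figure D2:**
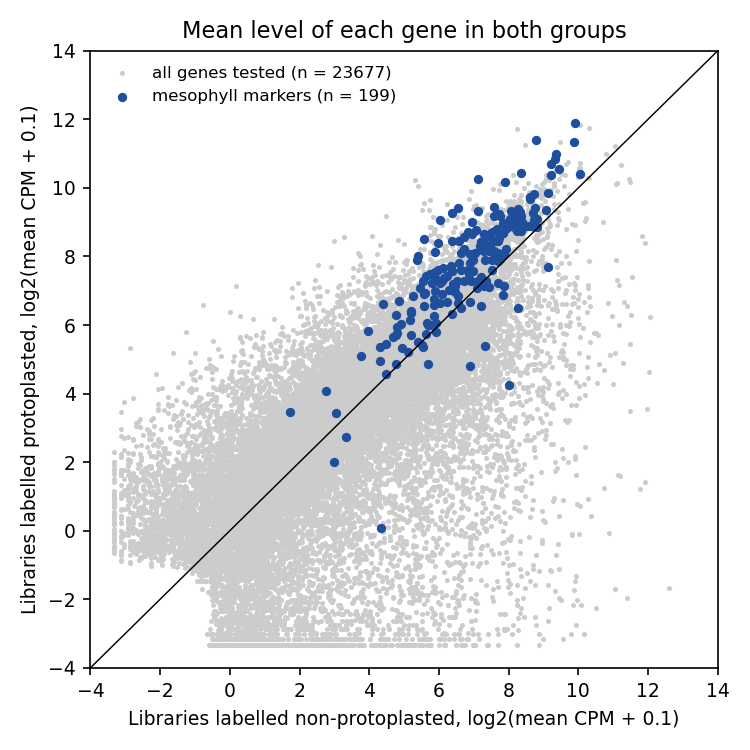
Mean level of each gene in the libraries labelled non-protoplasted (x axis) and labelled protoplasted (y axis), both as log2(mean CPM + 0.1), with 3 libraries per group. Grey points are the 23677 genes tested, blue points the 199 mesophyll markers, and the line marks equal levels. Most blue points lie above the line by up to 3.13 on the log2 scale, and few lie below it.

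In 152 markers every library labelled protoplasted stood above every library labelled non-protoplasted (76.4%, beside 40.4% of all genes tested), and in 15 the order was the opposite (7.54%, beside 40.1%). The remaining markers overlapped. Of those that did not overlap, 5 still missed the adjusted threshold. The 37 markers that did not pass had log2 fold changes from -0.21 to 0.45, and 27 of them were positive. Replicates were close. The median coefficient of variation over the markers was 12.8% among the libraries labelled protoplasted and 9.36% among the others, and the median standard error of a log2 fold change was 0.148. Over 30% of variation was seen in 6 markers in the libraries labelled protoplasted and in 0 in the others. Replicate 1 labelled protoplasted had the lowest value of its group in 125 of 199 markers, and replicate 2 labelled non-protoplasted had the highest of its group in 146. Without the former 156 markers were higher and 16 lower, and without the latter 141 and 12.

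High abundance did not go with a rise among genes in general. Of the 2254 genes with a mean of at least 100 CPM, 35.7% were higher and 49.1% lower, with a median log2 fold change of -0.29. The 146 markers at that level were higher in 118 cases and lower in 9, with a median of 0.93. The 53 markers under 100 CPM were higher in 30 cases and lower in 5, with a median of 0.62.

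**Figure D3:**
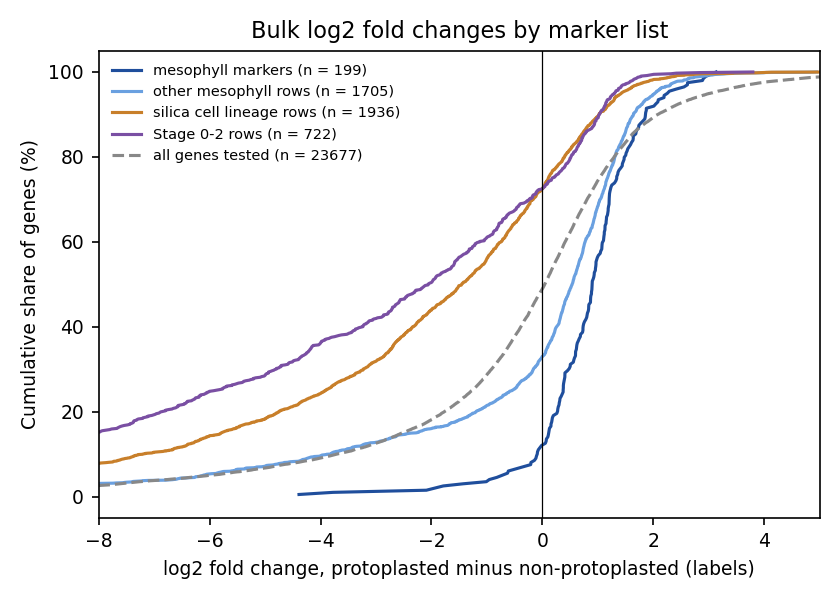
Cumulative share of genes (y axis, percent) by bulk log2 fold change (x axis, protoplasted minus non-protoplasted by title) for the 199 mesophyll markers, 3 other lists from the same marker table with the markers taken out, and all genes tested. The curve of the markers lies farthest to the right around 0, with a median of 0.90, and those of the silica cell lineage and of Stage 0-2 lie to the left, with medians of -1.45 and -2.06.

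The other 1705 mesophyll rows that could be tested had a median log2 fold change of 0.54, beside 0.90 for the markers. Of these rows, 973 were higher (57.1%, beside 38.7% of all genes tested) and 462 lower (27.1%, beside 38.3%). The median did not fall steadily along the list, since it was 0.45 for the first 49 markers by detection difference. Lists of other cells from the same table, of which only a part could be read, stood elsewhere. The 1936 silica cell lineage genes had a median of -1.45, with 396 higher (20.5%) and 1277 lower (66.0%). The 722 Stage 0-2 genes had a median of -2.06, with 158 higher (21.9%) and 495 lower (68.6%). The 313 genes of the G2/M sheet had a median of 0.41, with 156 higher (49.8%) and 85 lower (27.2%). These lists are set side by side as descriptions. No test of the difference between them was made.

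The markers were not uniform. The orders used next come from the single-cell table, the first of them from the values that chose the genes, and the bulk values are given along them as a description, with no test. Ordered by the detection difference, the first 49 markers had a median bulk log2 fold change of 0.45. Of these, 27 were higher (55.1%, beside 38.7% of all genes tested) and 8 lower (16.3%, beside 38.3%). The next groups of 50 had medians of 0.95, 1.11 and 1.00. Their higher genes numbered 42, 39 and 40 (84.0%, 78.0% and 80.0%), and their lower genes 1, 3 and 2 (2.0%, 6.0% and 4.0%). The same contrast was wider when the markers were ordered by the single-cell fold change in the same rows, an order chosen after the bulk values were seen. On the log2 scale this single-cell value was 1.19 to 3.97 in the first 49 markers. In the next groups of 50 it was 0.63 to 1.19, 0.45 to 0.63 and -0.65 to 0.45, so that many markers were only weakly enriched by average level. In this order the first 49 had a median bulk log2 fold change of 0.17. Of these, 17 were higher (34.7%, beside 38.7% of all genes tested), 10 lower (20.4%, beside 38.3%) and 22 did not pass. The share that rose was thus near that of all genes. The following groups of 50 had medians of 1.06, 0.96 and 1.17, and 42, 44 and 45 of their genes were higher (84.0%, 88.0% and 90.0%). Across the 199 genes, Spearman's rho between the single-cell and the bulk log2 fold change was -0.413. This is a correlation across genes measured in the same 6 libraries, and genes are not independent replicates. In the other direction, 6 markers had a lower average level in the mesophyll cluster than in other cells although they were detected more often there. All 6 were higher in the libraries labelled protoplasted, with a median log2 fold change of 1.82 and a median level of 1456 CPM.

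**Figure D4:**
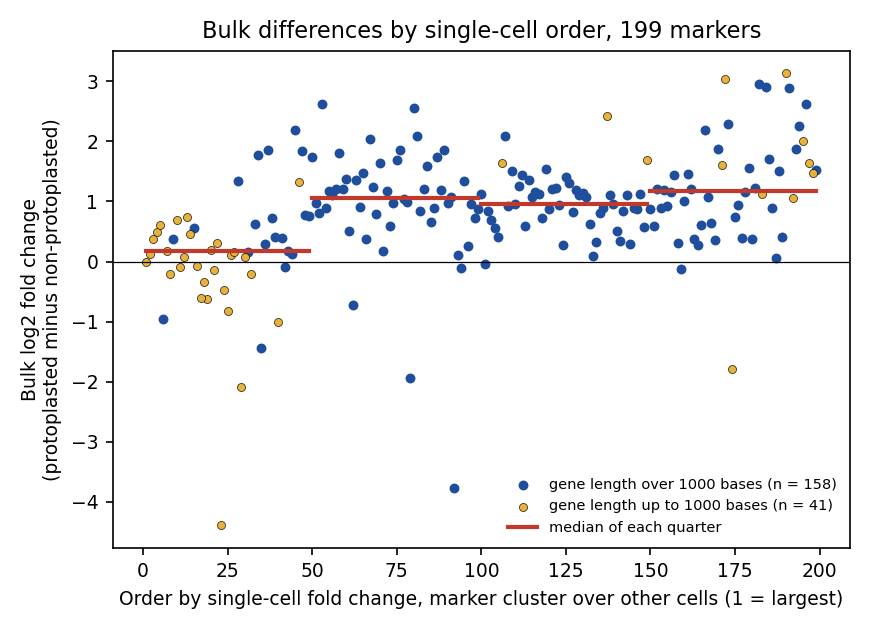
Bulk log2 fold change (y axis, protoplasted minus non-protoplasted by title) of each of the 199 mesophyll markers against its place in the order by single-cell fold change (x axis, 1 is the largest). Yellow points are genes of up to 1000 bases, blue points longer genes, and red lines the medians of the first 49 genes and of each following 50. The red lines stand at 0.17, 1.06, 0.96 and 1.17.

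The 49 markers of the largest single-cell fold change took 0.700%, 0.617% and 0.635% of the counts in replicates 1, 2 and 3 labelled protoplasted, and 0.468%, 0.482% and 0.429% in those labelled non-protoplasted. The means were 0.651% ± 0.0439 (SD, n = 3) and 0.460% ± 0.0272 (SD, n = 3), a ratio of 1.415. For the other 150 the shares were 7.60% ± 0.583 (SD, n = 3) and 2.60% ± 0.206 (SD, n = 3), a ratio of 2.92. Replicate 1 labelled protoplasted was the highest library for the 49 genes and the lowest of its group for the 150.

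Gene length as deposited moved with this order. The first 49 had a median length of 930 bases and the other 150 one of 2402 bases. Among the 41 markers of up to 1000 bases, 17 were higher (41.5%) and 9 lower (22.0%), with a median log2 fold change of 0.17. Among the 158 longer ones, 131 were higher (82.9%) and 5 lower (3.16%), with a median of 0.96. Of all genes over 1000 bases, 39.0% were higher and 38.1% lower. Length and order were then crossed. Of the first 49, the 29 short genes had a median of 0.07, with 6 higher and 8 lower, and the 20 longer genes one of 0.48, with 11 higher and 2 lower. Outside the first 49, the 12 short genes had a median of 1.64, with 11 higher and 1 lower, and the 138 longer genes one of 1.03, with 120 higher and 3 lower. Short markers were thus found at both ends of the range. All 2568 genes of up to 1000 bases that were tested had a median of -0.09, with 36.5% higher and 40.1% lower. The part of length in the order was not tested.

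The most abundant marker, by CPM as well as by TPM, was BdiBd21-3.3G0496700, paired with Bradi3g37670. It stood at 4053, 3564 and 3874 CPM in replicates 1, 2 and 3 labelled protoplasted and at 1096, 949 and 811 CPM in those labelled non-protoplasted. The groups were far apart, with a log2 fold change of 2.01 ± 0.17 (SE) and an edgeR adjusted p of 3.97e-06. BdiBd21-3.5G0311700, paired with Bradi5g23770, was at 3029, 2527 and 2573 CPM against 504, 472 and 350 CPM. This was the largest rise among the paired markers, with a log2 fold change of 2.62 ± 0.19 (SE) and an edgeR adjusted p of 1.32e-06. Both genes had a lower average level in the mesophyll cluster than in other cells. Their single-cell log2 fold changes were -0.27 and -0.45, in this order, so that they belong to the 6 markers described above. Against these stood BdiBd21-3.3G0687700, paired with Bradi3g51930, the marker with the largest detection difference in single cells. Its levels were 27.5, 18.6 and 25.7 CPM in the libraries labelled protoplasted and 23.5, 21.9 and 20.7 CPM in the others. The groups overlapped, and the log2 fold change of 0.12 ± 0.16 (SE) did not pass (edgeR adjusted p = 0.512). It passed at 0.50 with library size only.

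Of the 15 paired markers, 10 were higher, 0 lower and 5 did not pass, beside 38.7% higher and 38.3% lower of all genes tested. Nothing is read from this count, since the pairing followed the authors' order. BdiBd21-3.1G0905400 (Bradi1g67205) was the least abundant of them, at 7.45, 11.9 and 13.2 CPM against 3.27, 3.52 and 2.74 CPM, and rose by a log2 fold change of 1.77 ± 0.24 (SE). BdiBd21-3.1G1005400 (Bradi1g75280) was at 58.3, 91.5 and 83.6 CPM against 22.6, 32.9 and 26.2 CPM, a log2 fold change of 1.51 ± 0.20 (SE). A group of 4 lay close to each other. BdiBd21-3.4G0061500 (Bradi4g04560) changed by 1.20 ± 0.14 on the log2 scale (SE), BdiBd21-3.4G0090800 (Bradi4g06670) by 1.20 ± 0.18, BdiBd21-3.2G0791000 (Bradi2g61580) by 1.13 ± 0.17 and BdiBd21-3.5G0157200 (Bradi5g12430) by 1.07 ± 0.17, which do not differ beyond their errors. Of these, BdiBd21-3.5G0157200 was the most abundant, at 427, 624 and 601 CPM against 252, 278 and 257 CPM. Smaller rises were those of BdiBd21-3.1G0871000 (Bradi1g64540), from 192 ± 12.1 to 351 ± 22.3 CPM (SD, n = 3), and BdiBd21-3.1G0619400 (Bradi1g47140), from 65.3 ± 2.85 to 98.9 ± 19.5 CPM (SD, n = 3). Their log2 fold changes were 0.87 ± 0.13 and 0.60 ± 0.16 (SE). The edgeR adjusted p of the 10 ran from 1.32e-06 to 0.00577.

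Among the paired markers that did not pass, BdiBd21-3.4G0498700 (Bradi4g35810) was at 93.2, 128 and 121 CPM against 96.6, 93.0 and 92.4 CPM, where replicate 1 labelled protoplasted fell within the other group. BdiBd21-3.3G0138300 (Bradi3g10200) was at 55.8, 74.5 and 62.6 CPM against 55.6, 54.0 and 50.1 CPM. These groups did not overlap, by a margin of less than 1 CPM. Their log2 fold changes were 0.28 ± 0.14 and 0.27 ± 0.13 (SE), with edgeR adjusted p of 0.0935 and 0.082. Both passed without replicate 1 labelled protoplasted, at 0.41 and 0.37 on the log2 scale, and also with library size only, at 0.66 each, and on the TPM scales, at 0.53 to 0.55. BdiBd21-3.1G0894300 (Bradi1g66380) was at 39.6, 32.4 and 38.9 CPM against 40.4, 33.0 and 29.2 CPM, fully overlapping, and its log2 fold change of 0.11 ± 0.15 (SE) did not pass. It turned to -0.013 without replicate 3 labelled non-protoplasted, whereas it passed at 0.50 with library size only and at 0.41 and 0.40 on the TPM scales. BdiBd21-3.5G0333900 (Bradi5g25350) was at 55.8, 56.8 and 55.3 CPM against 61.8, 57.9 and 61.2 CPM, close but not overlapping, a log2 fold change of -0.11 ± 0.10 (SE) whose sign turned under scaling by library size and on the TPM scale.

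**Figure D5:**
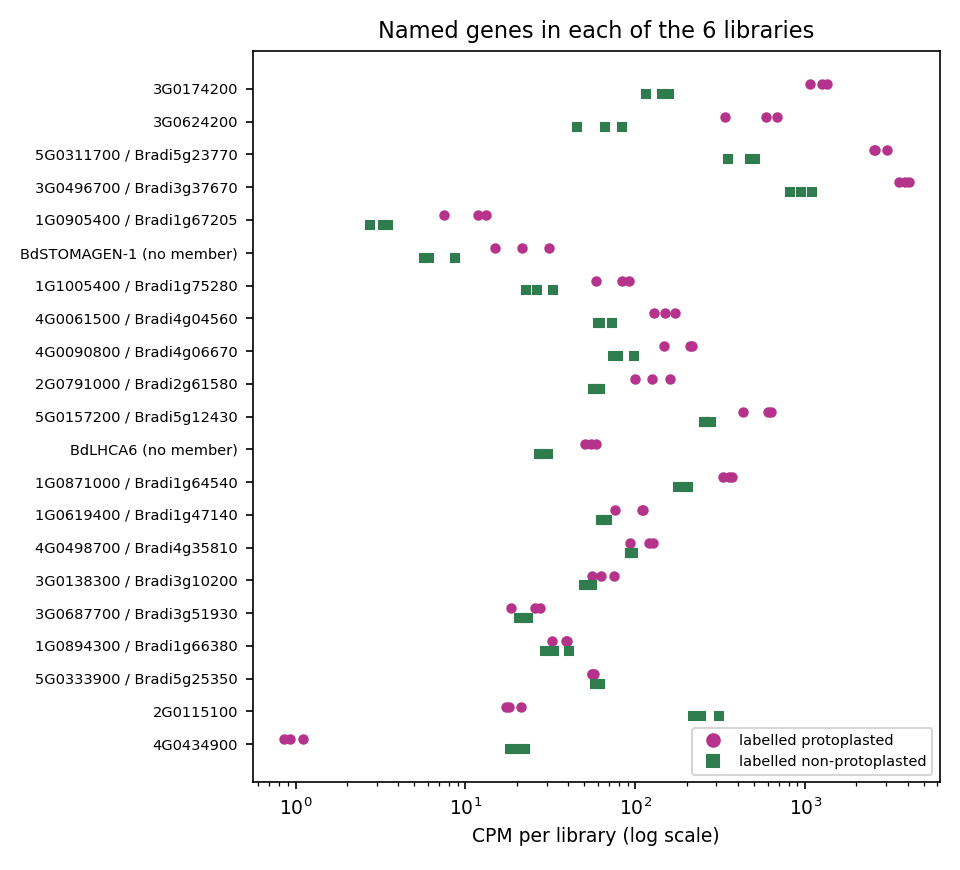
Level of each named gene (y axis, ordered by log2 fold change, the highest at the top) as CPM per library (x axis, log scale). Circles are the 3 libraries labelled protoplasted and squares the 3 labelled non-protoplasted, and identifiers are shown without their common prefix BdiBd21-3. The groups are clearly apart in the genes at the top and in the lowest 2, and they overlap or lie close together in the genes just above the lowest 2.

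Markers without a paired identifier held the extremes of the set. BdiBd21-3.3G0174200 stood at 1065, 1250 and 1335 CPM in replicates 1, 2 and 3 labelled protoplasted and at 116, 158 and 143 CPM in those labelled non-protoplasted. It was 8.76-fold higher, a log2 fold change of 3.13 ± 0.18 (SE) with an edgeR adjusted p of 2.59e-07. BdiBd21-3.3G0624200 was at 338, 680 and 589 CPM against 45.4, 83.1 and 66.0 CPM, with replicate 1 the lowest in either group. Its log2 fold change was 3.05 ± 0.30 (SE), with an edgeR adjusted p of 1.22e-05. The steepest fall was that of BdiBd21-3.4G0434900, at 1.11, 0.921 and 0.852 CPM against 22.3, 19.9 and 18.4 CPM. Its counts were 23 to 29 in the libraries labelled protoplasted and 327 to 431 in the others, so that it was 20.9-fold lower (log2 fold change -4.39 ± 0.18, SE, edgeR adjusted p = 4.22e-08). BdiBd21-3.2G0115100 fell from 311, 218 and 244 CPM to 17.3, 18.0 and 21.1 CPM, a log2 fold change of -3.78 ± 0.18 (SE, edgeR adjusted p = 8.45e-08). Both genes that fell were detected more often in cells of the mesophyll cluster, as all members by the rule, and were nevertheless far lower in bulk RNA of the libraries labelled protoplasted.

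The mesophyll markers that the study names moved with the larger part of the set. *BdLHCA6* is named after an Arabidopsis gene for a light-harvesting protein of photosystem I. It was at 54.5, 50.8 and 58.8 CPM against 27.1, 30.4 and 28.8 CPM, a log2 fold change of 0.93 ± 0.11 (SE, edgeR adjusted p = 4.92e-05), close to the median of the 199 genes. *BdSTOMAGEN-1* is named after a secreted peptide that in Arabidopsis is made in the mesophyll and promotes stomata in the epidermis. It was at 14.9, 30.9 and 21.6 CPM against 8.73, 6.11 and 5.68 CPM, a log2 fold change of 1.73 ± 0.27 (SE, edgeR adjusted p = 0.000285). In neither gene did the groups overlap.

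By the chromosome in their identifiers, 68 markers lay on chromosome 1, 44 on chromosome 2, 43 on chromosome 3, 28 on chromosome 4 and 16 on chromosome 5, with median log2 fold changes of 0.87, 0.61, 1.01, 1.13 and 1.06. Chromosome 2 held 7 of the 14 markers that were lower. These were 15.9% of its 44 markers, beside 38.3% of all genes tested. Shares of all genes by chromosome are not given, and nothing is read from this count. Neighbours in the order of identifiers did not always move alike. In a pair of directly neighbouring markers on chromosome 2 both were lower, by -0.34 and -2.09 on the log2 scale, and in a pair on chromosome 4 both were higher, by 1.68 and 1.25. A pair on chromosome 1 differed, with 0.17, which did not pass, and -0.82. Whether neighbours are alike in sequence, and whether reads were exchanged between them in counting, was not tested.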

How the data were processed

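Bulk RNA of 6 samples was sequenced with 75 bp reads. After FastQC, the authors aligned them to the Bd21-3 genome (release 1.1, a later release served for the single cells) with Bowtie2 and counted them over genes with summarizeOverlaps. The authors deposited these raw counts, gene lengths in bases, a signal in reads per kilobase, TPM and group means of TPM. Counting mode and strand setting were not given in the sources used here. All per-library columns belonged to a sample of the series, and 0 were unused. Counts were tested with edgeR 4.0.16 in R 4.3.3 (filterByExpr at a minimum count of 10, TMM, glmQLFit, glmQLFTest, prior count 0.125, Benjamini-Hochberg adjustment, threshold 0.05). Standard errors are approximate, from the log2 fold change and the F statistic. Shares of a library were compared with a two-sided exact permutation test. The floor of 3 counts covers counting error only, whereas SD and SE include the spread between replicates. The tests were also run on simulated counts in which few genes changed. In these data most genes tested passed, so that the simulation cannot show how the tests behave here.

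The test was repeated with DESeq2 1.42.0, with limma 3.58.1 (voom on counts, trend on TPM with pseudocounts of 1 and 0.1), with RLE factors or unscaled library sizes, with filters of 10 counts in each library or 1 count in total, with a prior count of 2, a replicate block, exchanged labels and other choices of members, and without each library in turn. Members and lists were chosen with earlier results of these data known, and the order by single-cell fold change, the length limit of 1000 bases, the 100 CPM level and the set without its 5 most abundant genes were chosen after seeing the data. The text names the 15 members paired with a Bradi identifier, of the others the 2 highest and 2 lowest log2 fold changes among those that passed, did not overlap and had a mean of at least 10 CPM, and *BdLHCA6* and *BdSTOMAGEN-1*. The marker tables and the table that pairs identifiers were at hand in part, so that lists and pairs taken from them are partial. Of the 200 identifiers, 0 matched the RefSeq gene table, and no sequence was used here. Columns of the authors' own group means of TPM were not used.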

Additional observations from a re-analysis of the deposited data

How the results depend on the processing

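Under the scalings, tools and filters tried, the median of the markers stayed positive and the markers stayed more often higher than all genes. Scaling moved the size. With library size only the median log2 fold change of the markers was 1.28, with limma-trend on log2(TPM + 0.1) 1.18 and on log2(TPM + 1) 1.17, while the median of all genes moved by 0.38, 0.27 and 0.21 from 0.04. The markers were then higher in 89.4%, 86.4% and 86.4%, and all genes in 48.6%, 45.5% and 45.8%. DESeq2 moved the median of all genes by -0.19 and the filter at 1 count by -0.11. Both were fitted to the 31335 genes with counts, and the main test to 23677. They called 8876 and 9756 genes higher, beside 9164 in the main test. Over the larger number these were 28.3% and 31.1%, beside 73.9% and 76.9% of the markers. DESeq2 can leave genes of low counts without an adjusted p, so that 28.3% may understate its share of the genes tested. Above a log2 fold change of 3 stood 1 marker with RLE normalization, 6 with library size only and 5 on both TPM scales. BdiBd21-3.5G0333900 turned to 0.28 with library size only and to 0.18 on both TPM scales, and BdiBd21-3.1G0894300 ranged from -0.013 to 0.23 when 1 library was left out, turning without replicate 3 labelled non-protoplasted.

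With the groups of the treatment entry, 14 markers were higher and 148 lower, with a median of -0.90. The 200 mesophyll rows of the largest single-cell fold change had 30 lower genes, 5 below -3, a median of 0.62 and a difference in share of 1.26 percentage points. The first 100 markers had 69 higher and 9 lower genes, 0 above 3 and 1 below -3, a median of 0.78 and a difference in share of 2.54 points. The difference in share was 7.66 points in TPM and 4.02 points without the 5 most abundant markers. Exchanged labels turn every sign by construction, and a share summed over fewer genes is smaller in each library. The cause of the other changes was not tested.

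Leaving out 1 library at a time gave 136 to 156 higher and 12 to 16 lower markers, 1 to 5 above 3 and 2 below -3, medians of 0.85 to 1.01 and differences in share of 5.00 to 5.50 points. Over all genes it gave 8305 to 9702 higher and 8581 to 9690 lower. Same-numbered libraries deviated with correlations of 0.121, 0.0379 and 0.0832. Replicate 2 labelled protoplasted correlated slightly better with replicate 3 labelled non-protoplasted, at 0.0457. Each other library correlated best with its own number. Such weak correlations cannot decide whether the replicate numbers pair the samples. With the replicate block, 14 markers were lower and 74.9% higher, with a median of 0.90, and no call of a named gene changed. Of 336 values of named genes under the alternatives, 4 turned sign and 12 passed the threshold that had not. The lowest count of a marker in any library was 23, so that depth left none of them near the floor of 3 counts.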
